A study of Mus musculus with 24 samples.

Results

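The genes described here are 53 mouse genes of ribosome assembly and of transcription by RNA polymerase I (Pol I). They were picked by symbol from the 37620 genes of the deposited count table, and all 53 were found and passed the filter on low counts. By role they are 3 proteins of box C/D and 4 of box H/ACA small nucleolar ribonucleoproteins (snoRNPs), 4 nucleolar chaperones, 16 factors of the small (40S) and 19 of the large (60S) ribosomal subunit, 2 nucleolar RNA helicases, and 5 Pol I genes. They were measured in crypts, the glands at the base of the intestinal lining, from the mouse jejunum, in 24 polyadenylated RNA libraries, 3 in each of 8 groups. The labels tie no library to a named animal, so p values measure the spread between these libraries. The genotypes were the combined conditional knockout of Apc and of the Notchless gene Nle1 (ApccKO;NlecKO, called the double knockout here), the conditional knockout of Apc alone (ApccKO), that of Nle1 alone (NlecKO), and Control. Each genotype was sampled on day 1 (24 h) and day 2 (48 h) after induction. By the labels all mice, Control included, had received tamoxifen into the peritoneum at 56 mg/kg on 3 consecutive days when they were 5 to 10 weeks old. The labels name neither the Cre driver nor the alleles of the Control mice.

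Ribosomes are built mainly in the nucleolus, where Pol I transcribes the precursor of most ribosomal RNA. The box C/D and box H/ACA snoRNPs guide the methylation and pseudouridylation of that precursor, and separate sets of factors then carry the 40S and the 60S precursors through cleavage, folding, export and final release in the cytoplasm. The Notchless protein takes part in 60S maturation. The APC protein restrains Wnt signalling, and crypts, the dividing compartment of the intestine, depend on Wnt signals. Myc, a Wnt target, is known as an activator of many ribosome assembly genes.

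Levels are given in CPM (estimated counts scaled to a common library size) for each of the 3 libraries of a group or as mean ± SD (n = 3 libraries), and changes on the log2 scale as estimate ± SE. Tests used the quasi-likelihood method of edgeR, and p was adjusted by Benjamini-Hochberg over the 16552 genes that passed the filter. Counts by unadjusted p use the same limit of 0.05. A gene passed, and is said to have risen or fallen, at an adjusted p under 0.05. The libraries held 17.86 to 26.47 M estimated counts, of which the 53 genes took 0.32% to 0.891%. Nle1 fell in all 4 comparisons of Nle1 loss. It averaged 9.59 ± 2.41 CPM in double knockout and 37.2 ± 2.34 CPM in ApccKO crypts on day 1, and 5.53 ± 0.841 CPM in NlecKO and 24.8 ± 2.6 CPM in Control crypts. Apc counts over the whole gene averaged 130 to 147 CPM in all groups, so they do not check the Apc labels. The defining epithelial markers (Epcam, Cdh1, Vil1, Cdx2 and Krt8) were present in every group, with summed means of 5010 to 7670 CPM. In crypts without Apc, 3 libraries of day 1 stood apart by 1 gene: ApccKO replicates 2 and 3 and double knockout replicate 3 had 455, 295 and 445 CPM of the lactase gene Lct, against 10.2 to 126 CPM in the other 9 libraries without Apc. By the sum of 14 enterocyte markers they had 10700, 7620 and 16900 CPM, and the other 9 had 2380 to 8360 CPM. ApccKO replicate 3 did not stand apart by that sum. The 3 libraries were chosen with their values in view, and results of day 1 that rest on them are given with and without them. The submitters' code numbers put all libraries without Apc in 1 run between 2 runs of libraries with intact Apc, so an effect of that order and of Apc loss cannot be told apart. Within each genotype all day 1 codes precede all day 2 codes, so order and day cannot be told apart either.

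Upstream sequences were available for 45 of the 53 genes in RefSeq (build GRCm38.p6), as 52 windows of 300 bases that run from 250 bases before to 50 bases after a transcription start. Fbl, Gnl3l, Rrp12, Eif6, Rrs1, Npm1, Sbds and Gnl2 had no window. The E-box CACGTG, which reads the same on both strands and is the letter sequence that Myc and Max are known to bind, stood in 10 of the 52 windows (19.2%), against 7.15% of the 32851 windows of all genes. Those 10 windows belong to 9 genes: Ltv1, Pno1, Tsr1, Utp20 and Wdr43 of the 40S class, Nmd3, Nop2 and Rpf2 of the 60S class, and the Pol I factor gene Rrn3. Searched on both strands, the ETS-type sequence CCGGAAG stood in 34.6% of the windows, against 8.86% of all windows, and the GC box GGGCGG in 61.5%, against 35.7%. The TATA sequence TATAAA stood in 1.92%, in Dkc1 alone, against 13.6% of all windows. None of the 4 motifs lies within another, and a match is a description of letters, not of binding. The 250 bases before the start are shown, with E-boxes in capitals, for the genes whose first listed window held an E-box in that stretch. These were the 60S methyltransferase gene Nop2, the 60S export adapter gene Nmd3 and the Pol I initiation factor gene Rrn3. Rrp1b, the gene with the largest rise after Apc loss with Nle1 present, is shown as well, and its stretch holds none. All are on the plus strand and read 5′ to 3′.
Nop2, chr6:125131633-125131882: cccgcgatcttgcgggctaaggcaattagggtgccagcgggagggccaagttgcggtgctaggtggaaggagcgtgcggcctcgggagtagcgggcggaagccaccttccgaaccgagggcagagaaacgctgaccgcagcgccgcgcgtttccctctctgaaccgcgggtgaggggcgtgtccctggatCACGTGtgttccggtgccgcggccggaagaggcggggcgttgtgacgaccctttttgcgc
Nmd3, chr3:69721805-69722054: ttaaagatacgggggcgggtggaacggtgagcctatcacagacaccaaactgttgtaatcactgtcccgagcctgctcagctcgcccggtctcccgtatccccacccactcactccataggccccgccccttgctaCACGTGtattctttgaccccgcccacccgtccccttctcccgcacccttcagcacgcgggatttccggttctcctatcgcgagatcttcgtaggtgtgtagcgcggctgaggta
Rrn3, chr16:13780449-13780698: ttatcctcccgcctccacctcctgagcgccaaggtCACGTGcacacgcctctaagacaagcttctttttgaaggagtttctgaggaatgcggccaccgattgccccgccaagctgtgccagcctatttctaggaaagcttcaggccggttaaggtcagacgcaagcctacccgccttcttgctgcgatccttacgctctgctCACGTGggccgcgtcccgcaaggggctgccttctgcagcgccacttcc
Rrp1b, chr17:32035912-32036161: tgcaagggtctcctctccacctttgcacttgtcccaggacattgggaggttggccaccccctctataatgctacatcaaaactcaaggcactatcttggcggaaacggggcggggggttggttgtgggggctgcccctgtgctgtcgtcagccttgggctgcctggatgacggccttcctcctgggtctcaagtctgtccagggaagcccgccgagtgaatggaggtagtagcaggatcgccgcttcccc
The E-box begins 60 bases before the start in Nop2 and 114 bases before it in Nmd3, and Rrn3 has a pair, at 215 and 48 bases.

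Per transcript length, the levels of the 53 genes spanned a wide range. By mean TPM over the 24 libraries, a unit scaled by transcript length so that genes can be compared, the chaperone gene Npm1 stood highest at 789 TPM, ahead of the fibrillarin gene Fbl at 293 TPM and Eif6 at 217 TPM. Lowest were the late 40S kinase gene Riok1 at 12.1 TPM, the GTPase gene Gnl3l at 15.5 TPM and the helicase gene Ddx10 at 16.5 TPM. Over single libraries Npm1 ran between 339 and 1230 TPM, and Eif6 between 179 and 275 TPM. Polyadenylated RNA does not measure the Pol I product itself.

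**Figure D1:**
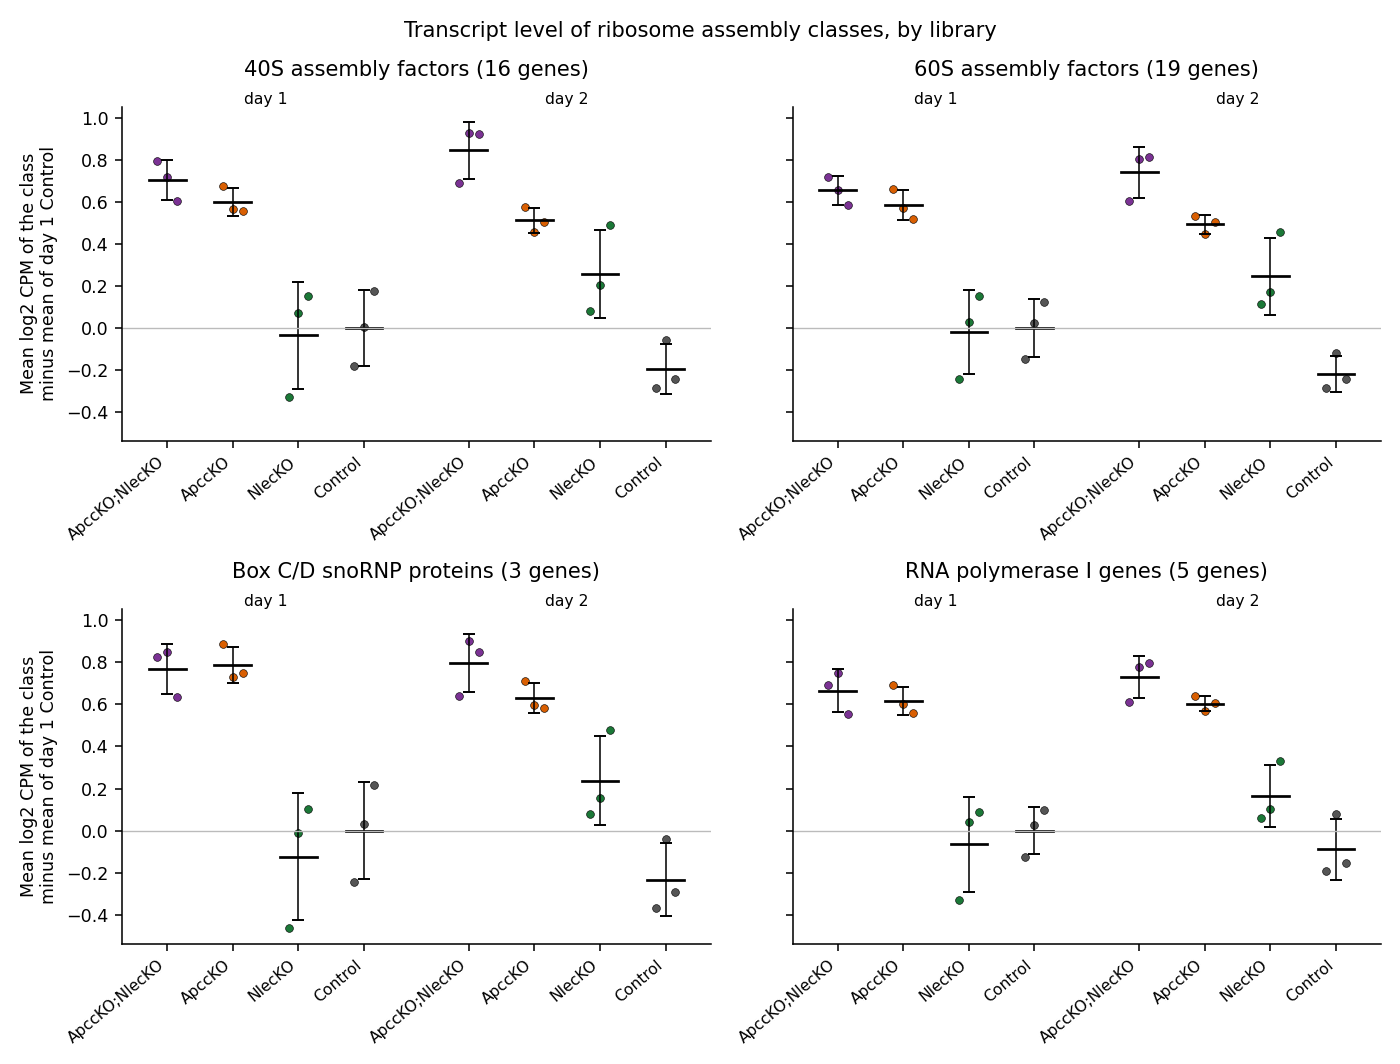
Mean log2 CPM of 4 role classes in each library, relative to the mean of day 1 Control; points are libraries, long bars the mean and short bars the SD (n = 3), with ApccKO;NlecKO the double knockout. Every library without Apc lies above every library with intact Apc in the box C/D and Pol I panels; in the 40S and 60S panels NlecKO replicate 3 of day 2, at 0.49 and 0.455, reaches the lowest libraries without Apc, at 0.456 and 0.445.

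The comparison of ApccKO with Control crypts gives the effect of Apc loss with Nle1 present. Nearly the whole set rose, on both days and in every role class: 51 of 53 genes on day 1 and 51 on day 2, with 0 falling by edgeR (0 by unadjusted p and 0 by DESeq2 on either day). Of all genes tested, Apc loss called 49.7% on day 1 and 58.7% on day 2, and 24.7% and 29.2% rose. The median log2 change of the 53 genes was 0.69 on day 1 and 0.80 on day 2, beside -0.01 and 0.02 over all genes tested. The 2 genes without a call on both days were Eif6 and Sbds, whose products meet at the end of 60S maturation. The 40S factors had a median of 0.59 on day 1 and 0.77 on day 2, and the 60S factors 0.68 and 0.76. Without the 3 libraries that stand apart, which leaves 1 ApccKO library on day 1 assumed to vary like the other groups, 48 of 53 genes rose on day 1, and Nmd3, Pno1 and Riok1 lost their calls, as they did without Control replicate 1 alone.

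Among the snoRNP genes, all 3 of box C/D and all 4 of box H/ACA rose on both days. Nop56 (ENSMUSG00000027405), a core box C/D protein, had 298, 254 and 254 CPM in the 3 ApccKO libraries of day 2 and 120, 155 and 120 CPM in the 3 Control libraries. The groups did not overlap, and the log2 change was 1.03 ± 0.14, adjusted p = 3.3e-06. Its partner Nop58 (0.82 ± 0.15, adjusted p = 7.8e-05) and the methyltransferase gene Fbl (0.73 ± 0.15, adjusted p = 0.00035) rose less on day 2. Gar1 (ENSMUSG00000028010), a core box H/ACA protein, had 95.5, 116 and 93.5 CPM in ApccKO and 35.6, 50.4 and 41.3 CPM in Control libraries of day 2. This rise (1.26 ± 0.15, adjusted p = 1.2e-06) was the largest of the snoRNP genes, with Nhp2 next (1.05 ± 0.16, adjusted p = 1.2e-05). The pseudouridine synthase gene Dkc1 rose by less (0.74 ± 0.13, adjusted p = 6.1e-05). On day 1 the order was led by Nop56 (0.91 ± 0.14, adjusted p = 3.2e-05), and Dkc1 (0.70 ± 0.13, adjusted p = 0.00019), Nhp2 (0.81 ± 0.16, adjusted p = 3e-04), Gar1 (0.79 ± 0.15, adjusted p = 0.00032), Nop58 (0.72 ± 0.15, adjusted p = 0.00045) and Fbl (0.70 ± 0.15, adjusted p = 0.00071) rose as well. Words of 31 bases that another gene of the transcript reference also holds made up 20.7% of Fbl, 22.4% of Nop56 and 29.2% of Npm1, so part of their counts could be split with other genes.

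Of the nucleolar chaperones, Npm1 alone stood out by level, with a mean of 789 TPM. Ncl had 130 TPM, Npm3 114 TPM and Nolc1 73.3 TPM, all below Fbl at 293 TPM. Npm1 (ENSMUSG00000057113), nucleophosmin, had 750, 685 and 755 CPM in ApccKO libraries of day 2, against 309, 430 and 369 CPM in Control libraries (0.98 ± 0.16, adjusted p = 3.4e-05). Nucleolin, Ncl, had 947, 974 and 915 CPM in ApccKO and 464, 514 and 504 CPM in Control libraries (0.94 ± 0.14, adjusted p = 8.2e-06). In neither gene did the groups overlap. Nolc1, a chaperone of snoRNPs, rose on day 1 (0.74 ± 0.13, adjusted p = 0.00018) and day 2 (0.70 ± 0.13, adjusted p = 0.00017), and Npm1 (0.995 ± 0.16, adjusted p = 6.5e-05) and Ncl (0.82 ± 0.14, adjusted p = 7.5e-05) rose on day 1 too. Npm3 rose on both days, but on day 2 its call was lost without ApccKO replicate 2, without Control replicate 1 or 3, and with no filter (adjusted p up to 0.12), and 30.7% of its words are shared, mainly with a pseudogene. Both helicase genes rose, Ddx21 by 0.80 ± 0.14, adjusted p = 9.3e-05 and Ddx18 by 0.87 ± 0.15, adjusted p = 4.4e-05 on day 2, and by 0.62 ± 0.14, adjusted p = 0.0015 and 0.78 ± 0.15, adjusted p = 0.00022 on day 1. For Ddx18, 65.5% of the words are shared with other genes, so its value is uncertain.

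All 16 factors of the 40S subunit rose on both days, by 0.30 to 0.77 on day 1 and 0.327 to 1.004 on day 2. Tsr1 (ENSMUSG00000038335), a late 40S factor, had 134, 125 and 131 CPM in ApccKO libraries of day 2 and 62.7, 76.2 and 70.6 CPM in Control libraries, and its log2 change was 0.90 ± 0.13, adjusted p = 9.6e-06 on day 2 and 0.75 ± 0.13, adjusted p = 0.00013 on day 1. Wdr43, a protein of the early processome on the nascent ribosomal RNA, rose by 0.73 ± 0.13, adjusted p = 0.00014 on day 1 and by 0.80 ± 0.13, adjusted p = 2.7e-05 on day 2. The kinase gene Riok2, needed late in 40S maturation, rose by 0.58 ± 0.10, adjusted p = 4.3e-05 on day 2, and Ltv1, a factor of 40S export, by 0.56 ± 0.09, adjusted p = 8.7e-05 on day 1. The smallest changes belonged to Riok1, which had 25.3, 24.9 and 25.5 CPM in ApccKO and 20.1, 21.1 and 19 CPM in Control libraries of day 2.

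Of the 19 factors of the 60S subunit, 17 rose on each day. Rrp1b (ENSMUSG00000058392), a nucleolar protein related to yeast Rrp1, had 120, 103 and 98.2 CPM in ApccKO and 39.6, 46.3 and 48.4 CPM in Control libraries of day 1, and 119, 94.1 and 108 CPM in ApccKO and 31.8, 48.2 and 38.4 CPM in Control libraries of day 2. All ApccKO libraries lay above all Control libraries. The log2 changes, 1.26 ± 0.16, adjusted p = 6.3e-06 on day 1 and 1.43 ± 0.16, adjusted p = 4.8e-07 on day 2, were the largest of the 53 genes on both days. Gnl3 (ENSMUSG00000042354), the nucleolar GTPase nucleostemin, rose by 0.79 ± 0.11, adjusted p = 1.7e-05 on day 1 and by 1.04 ± 0.11, adjusted p = 2.6e-07 on day 2, where it had 105, 82.9 and 90 CPM in ApccKO and 42.3, 49.9 and 42.4 CPM in Control libraries. Nip7, a factor of early 60S assembly, rose by 0.74 ± 0.11, adjusted p = 3.5e-05 and 0.96 ± 0.11, adjusted p = 8.1e-07 on the same days. The export adapter gene Nmd3 rose least among the 17 on day 1 apart from Rrp1 (0.32 ± 0.13, adjusted p = 0.044), and lost this call without Control replicate 1 or 2 or ApccKO replicate 1 or 2 (adjusted p up to 0.15). On day 2 Nmd3 (0.37 ± 0.13, adjusted p = 0.019) lost its call without ApccKO replicate 1 or 3 or Control replicate 2 (adjusted p up to 0.079).

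Eif6 and Sbds did not follow. Eif6 (ENSMUSG00000027613), which keeps free 60S subunits from joining 40S subunits, had 183, 189 and 167 CPM in ApccKO and 209, 185 and 202 CPM in Control libraries of day 1. On day 2 it had 184, 206 and 180 CPM in ApccKO and 193, 168 and 174 CPM in Control libraries, and the groups overlapped. The changes were -0.15 ± 0.09, adjusted p = 0.2 on day 1 and 0.09 ± 0.09, adjusted p = 0.41 on day 2. Sbds (ENSMUSG00000025337), whose product helps to release eIF6 from 60S subunits, had 53, 60.6 and 51.2 CPM in ApccKO and 59.5, 48.9 and 57 CPM in Control libraries of day 2, and the groups overlapped. On day 1 it had 54.1, 55.4 and 55.1 CPM in ApccKO and 58, 59.7 and 55.9 CPM in Control libraries, and no ApccKO library reached the lowest Control library. The changes were -0.08 ± 0.10, adjusted p = 0.53 on day 1 and -0.004 ± 0.10, adjusted p = 0.97 on day 2. A missed threshold does not show that the levels were equal.

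All 5 Pol I genes rose on both days. Polr1b (ENSMUSG00000027395), a catalytic subunit, had 109, 96 and 103 CPM in ApccKO and 49.6, 64.4 and 55.5 CPM in Control libraries of day 2 (0.86 ± 0.13, adjusted p = 1.3e-05), and rose by 0.81 ± 0.13, adjusted p = 5.7e-05 on day 1. Rrn3 (ENSMUSG00000022682), the factor that makes Pol I ready to initiate, had 59.6, 57.5 and 60.9 CPM in ApccKO and 33.3, 37.1 and 35 CPM in Control libraries of day 2. The groups did not overlap, and the change was 0.75 ± 0.11, adjusted p = 5.9e-06 on day 2 and 0.60 ± 0.11, adjusted p = 0.00015 on day 1. Polr1c, a subunit shared with RNA polymerase III, rose by 0.61 ± 0.11, adjusted p = 0.00014 on day 1 and by 0.65 ± 0.11, adjusted p = 3.6e-05 on day 2. Ubtf, the factor that holds ribosomal DNA open for Pol I, rose least of the 5, by 0.28 ± 0.08, adjusted p = 0.0084 on day 1 and by 0.32 ± 0.08, adjusted p = 0.002 on day 2.

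**Figure D2:**
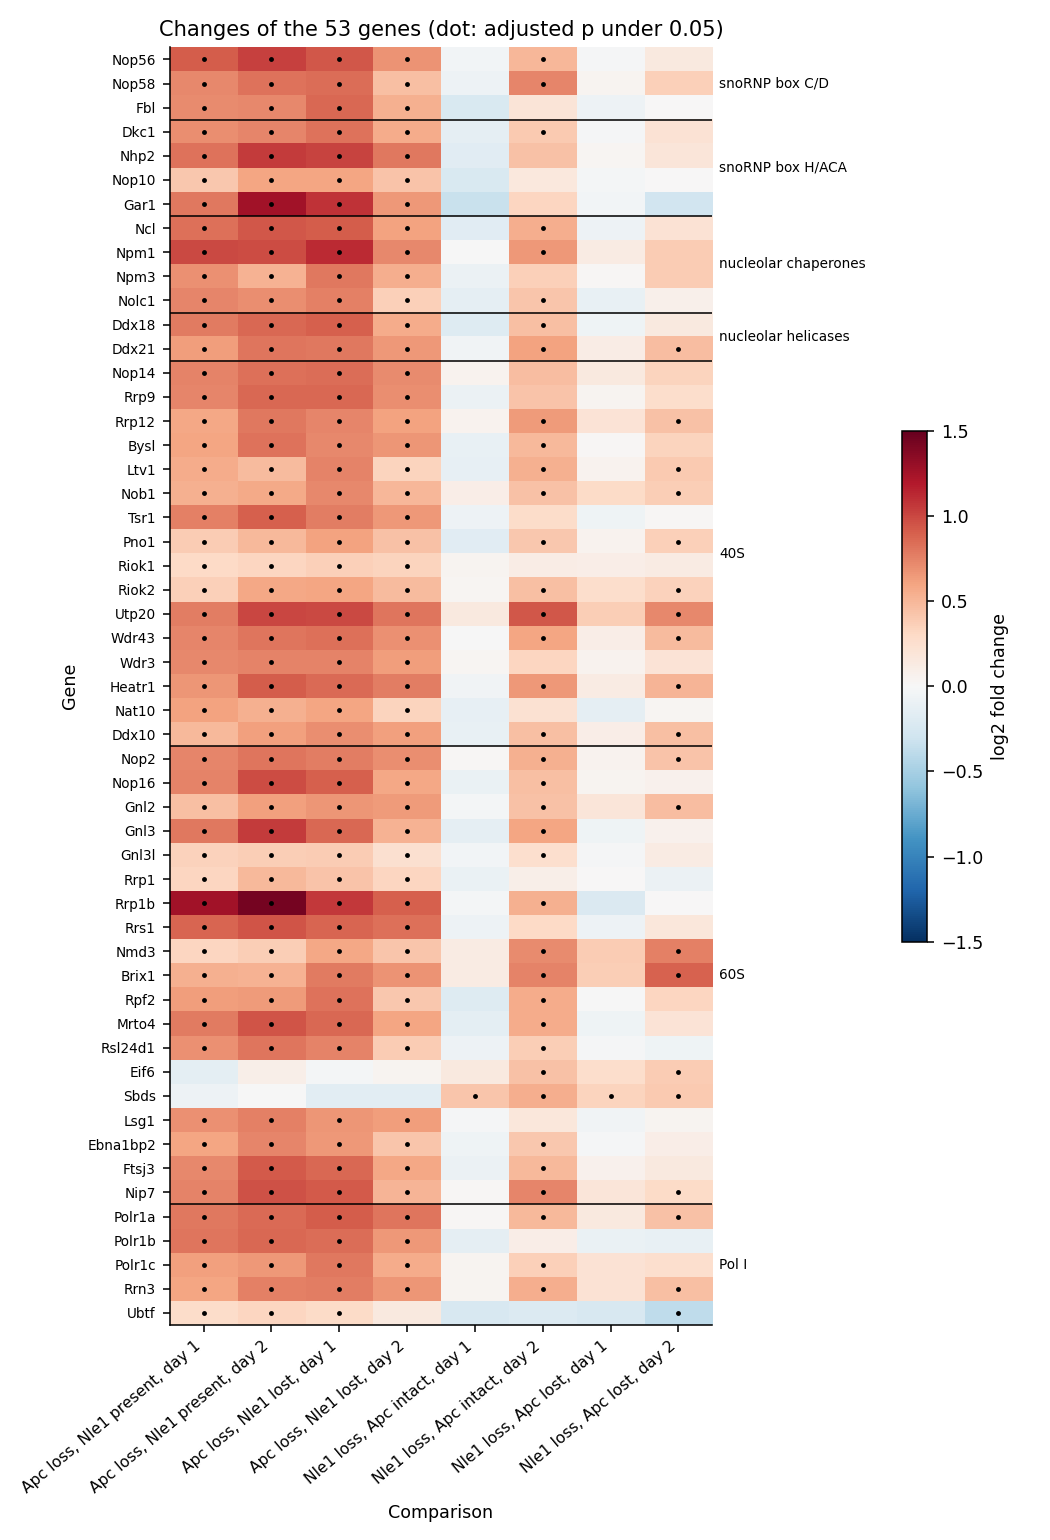
Log2 changes of all 53 genes, grouped by role class, in the 4 comparisons of Apc loss and the 4 of Nle1 loss; a dot marks an adjusted p under 0.05 by edgeR. The Apc loss columns are filled in every row but those of Eif6 and Sbds, with Ubtf also open on day 2 with Nle1 lost, and the Nle1 loss columns hold 20 dots with Apc lost and 37 with Apc intact on day 2, and Sbds alone on day 1.

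In crypts without Nle1, double knockout against NlecKO, Apc loss gave the same picture by count. On day 1, 51 of 53 genes rose, where 52.6% of all genes tested were called and 28.2% rose, and 51 members rose without the 3 libraries that stand apart as well. On day 2, 50 members rose, where 47.8% were called and 25.6% rose. None fell by edgeR on either day (0 by unadjusted p and 0 by DESeq2). Eif6 and Sbds again had no call on either day, and on day 2 Ubtf had none (0.14 ± 0.08, adjusted p = 0.16). Sbds changed by -0.16 ± 0.10, adjusted p = 0.17 on day 1 and by -0.16 ± 0.10, adjusted p = 0.18 on day 2, and Eif6 by -0.03 ± 0.09, adjusted p = 0.78 and 0.04 ± 0.09, adjusted p = 0.77. The median change was 0.79 on day 1 and 0.59 on day 2, beside 0.04 and 0.05 over all genes. For 40S factors it was 0.74 and 0.62, and for 60S factors 0.77 and 0.52. Without NlecKO replicate 1, NlecKO replicate 2 or double knockout replicate 3 in turn, 43 genes rose on day 2, and 41 of the 50 calls held in every alternative.

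The largest of these changes on day 1 belonged to Npm1, with 1040, 985 and 892 CPM in double knockout and 362, 474 and 510 CPM in NlecKO libraries (1.12 ± 0.16, adjusted p = 1.9e-05). Gar1 (1.08 ± 0.15, adjusted p = 1.6e-05), Nhp2 (1.01 ± 0.16, adjusted p = 3.6e-05), Nop56 (0.93 ± 0.14, adjusted p = 2.2e-05) and Dkc1 (0.82 ± 0.13, adjusted p = 3.9e-05) rose among the snoRNP genes. Ltv1 had the smallest p of the 40S class on day 1, with 65, 61.9 and 64.6 CPM in double knockout and 33.6, 39 and 41.9 CPM in NlecKO libraries (0.74 ± 0.09, adjusted p = 4.9e-06). The helicase gene Ddx10 of the 40S class rose by 0.70 ± 0.11, adjusted p = 5.1e-05 on day 1 and by 0.62 ± 0.11, adjusted p = 0.00016 on day 2. Of the 60S class, Nip7 (0.92 ± 0.11, adjusted p = 3.7e-06), Gnl3 (0.86 ± 0.11, adjusted p = 6.8e-06) and Nop16 (0.90 ± 0.12, adjusted p = 1.2e-05) led on day 1. On day 2 the leaders were Lsg1, a GTPase that helps to release Nmd3 in the cytoplasm (0.63 ± 0.11, adjusted p = 0.00014), Rrp1b (0.90 ± 0.16, adjusted p = 0.00015) and the methyltransferase gene Nop2 (0.70 ± 0.13, adjusted p = 0.00031). Polr1a, the largest Pol I subunit, had 137, 175 and 175 CPM in double knockout and 81.3, 87.1 and 110 CPM in NlecKO libraries of day 2 (0.80 ± 0.16, adjusted p = 0.00034). Polr1c (0.79 ± 0.11, adjusted p = 1e-05) and Rrn3 (0.77 ± 0.11, adjusted p = 1.1e-05) rose on day 1, and on day 2 by 0.55 ± 0.11, adjusted p = 0.00032 and 0.66 ± 0.11, adjusted p = 5.1e-05. Among those that did not hold, Nop58 (0.45 ± 0.14, adjusted p = 0.015) and Npm3 (0.55 ± 0.19, adjusted p = 0.024) lost theirs without double knockout replicate 2 or 3 or NlecKO replicate 1 or 2, and with only the compared libraries fitted (adjusted p up to 0.092 and 0.11).

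The comparison of NlecKO with Control crypts gives the effect of Nle1 loss with Apc intact, and it shares the Control libraries with the comparison of ApccKO and Control. On day 1 few members passed: 1 of 53 genes rose and 0 fell by edgeR, where 2.48% of all genes tested were called and 0.87% rose. By unadjusted p 3 were lower (10% of all genes), and 0 by DESeq2. The median change was -0.07, with -0.03 for 40S and -0.05 for 60S factors. The gene that rose was Sbds, with 86.8, 69.1 and 75.5 CPM in NlecKO and 58, 59.7 and 55.9 CPM in Control libraries. All NlecKO libraries lay above all Control libraries (0.41 ± 0.10, adjusted p = 0.03), but the call was lost without Control replicate 2 or 3 or NlecKO replicate 1 or 3, and with only the compared libraries fitted (adjusted p up to 0.17). The largest changes without a call were those of Gar1 (-0.33 ± 0.15, adjusted p = 0.28), Ubtf (-0.25 ± 0.08, adjusted p = 0.11) and Nop10, another box H/ACA protein (-0.23 ± 0.11, adjusted p = 0.28). NlecKO replicate 1 of day 1 was the lowest library of the 24 for the mean of the 53 genes and had the highest sum of enterocyte markers, 53400 CPM.

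On day 2 Nle1 loss went with higher levels across the set: 37 of 53 genes rose and 0 fell by edgeR, where 15.6% of all genes tested were called and 7.33% rose. By unadjusted p 1 was lower, Ubtf (15% of all genes), and 0 by DESeq2. The median change was 0.45, beside 0.00 over all genes, and the 40S and 60S factors had like medians of 0.45 and 0.48, with 10 of 16 and 16 of 19 called. The count moved with the libraries fitted. It was 2, Sbds and Utp20, when only the 6 compared libraries were fitted, 13 without NlecKO replicate 3, 20 without Control replicate 1 and 21 without Control replicate 3. Sbds and Utp20 passed in every alternative tried.

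Utp20 (ENSMUSG00000004356), a large scaffold protein of the processome, had 90.6, 103 and 139 CPM in NlecKO libraries of day 2 and 50, 65.2 and 59.9 CPM in Control libraries. The groups did not overlap, and the change of 0.93 ± 0.18, adjusted p = 0.0017 was the largest of the 53 genes. Ltv1 (ENSMUSG00000019814) had 45.8, 46.3 and 59.9 CPM in NlecKO and 36, 34.7 and 34.5 CPM in Control libraries (0.53 ± 0.09, adjusted p = 8e-04), and Rrp12, another factor of 40S export, had 66.7, 80.1 and 92.6 and 49.5, 57.8 and 46.9 CPM in the same groups (0.63 ± 0.14, adjusted p = 0.0038). In each of these genes NlecKO replicate 3 was the highest of the 6 libraries. With only the compared libraries fitted, Ltv1 and Rrp12 had adjusted p values of 0.064 and 0.061.

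Among 60S factors, Nip7 (ENSMUSG00000031917) had 45.8, 47.6 and 64.4 CPM in NlecKO and 30.5, 33.8 and 30.5 CPM in Control libraries of day 2 (0.73 ± 0.11, adjusted p = 0.00027). Nmd3 (ENSMUSG00000027787) had 44.4, 49.1 and 64.4 CPM in NlecKO and 32.1, 29.2 and 35 CPM in Control libraries (0.71 ± 0.13, adjusted p = 0.001), about as large a change as that of Brix1 (ENSMUSG00000022247), a factor of early 60S assembly, with 52.4, 60.3 and 80.9 CPM in NlecKO and 36, 41.9 and 38.1 CPM in Control libraries (0.74 ± 0.14, adjusted p = 0.0015). No NlecKO library overlapped a Control library in these 3 genes, and with only the compared libraries fitted their adjusted p values were 0.052, 0.056 and 0.06. Sbds had 86.1, 79.4 and 75.9 CPM in NlecKO and 59.5, 48.9 and 57 CPM in Control libraries, again without overlap (0.55 ± 0.10, adjusted p = 0.00077). Eif6, which like Brix1 was named after its values were seen, had 225, 232 and 266 CPM in NlecKO and 193, 168 and 174 CPM in Control libraries (0.43 ± 0.09, adjusted p = 0.0035; adjusted p = 0.074 with only the compared libraries fitted).

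The other classes moved in part on day 2 of Nle1 loss with Apc intact. Nop58 rose, with 121, 136 and 174 CPM in NlecKO and 80.5, 93 and 86.1 CPM in Control libraries (0.73 ± 0.15, adjusted p = 0.002; adjusted p = 0.052 with only the compared libraries fitted), and Nop56 rose less (0.49 ± 0.14, adjusted p = 0.017). Of the box H/ACA genes 1 of 4 passed, Dkc1 (0.40 ± 0.13, adjusted p = 0.038), while Nhp2 did not (0.44 ± 0.16, adjusted p = 0.063). Npm1 (0.65 ± 0.16, adjusted p = 0.0093), Ncl (0.55 ± 0.14, adjusted p = 0.0091) and Nolc1 (0.41 ± 0.13, adjusted p = 0.04) rose among the chaperones, and so did the helicase genes Ddx21 (0.60 ± 0.14, adjusted p = 0.0073) and Ddx18 (0.45 ± 0.15, adjusted p = 0.039). In the Pol I class Rrn3 had 44, 52.8 and 56.8 CPM in NlecKO and 33.3, 37.1 and 35 CPM in Control libraries (0.54 ± 0.11, adjusted p = 0.0018; adjusted p = 0.057 with only the compared libraries fitted). Polr1c (0.36 ± 0.11, adjusted p = 0.029) and Polr1a (0.49 ± 0.16, adjusted p = 0.04) rose too. Nop14 and Rrp9 of the 40S class, with changes of 0.46 and 0.42, had no call. Without NlecKO replicate 3, and likewise with only the compared libraries fitted, Nop56, Dkc1, Npm1, Ncl, Nolc1, Ddx21, Ddx18, Polr1c and Polr1a lost their calls, with adjusted p values up to 0.25 over all alternatives. Nop56, Dkc1, Nolc1, Ddx18, Polr1c and Polr1a also lost them without Control replicate 1 or 3, Dkc1, Ddx18 and Polr1a without NlecKO replicate 2, Dkc1 without Control replicate 2 and Nolc1 without NlecKO replicate 1.

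**Figure D3:**
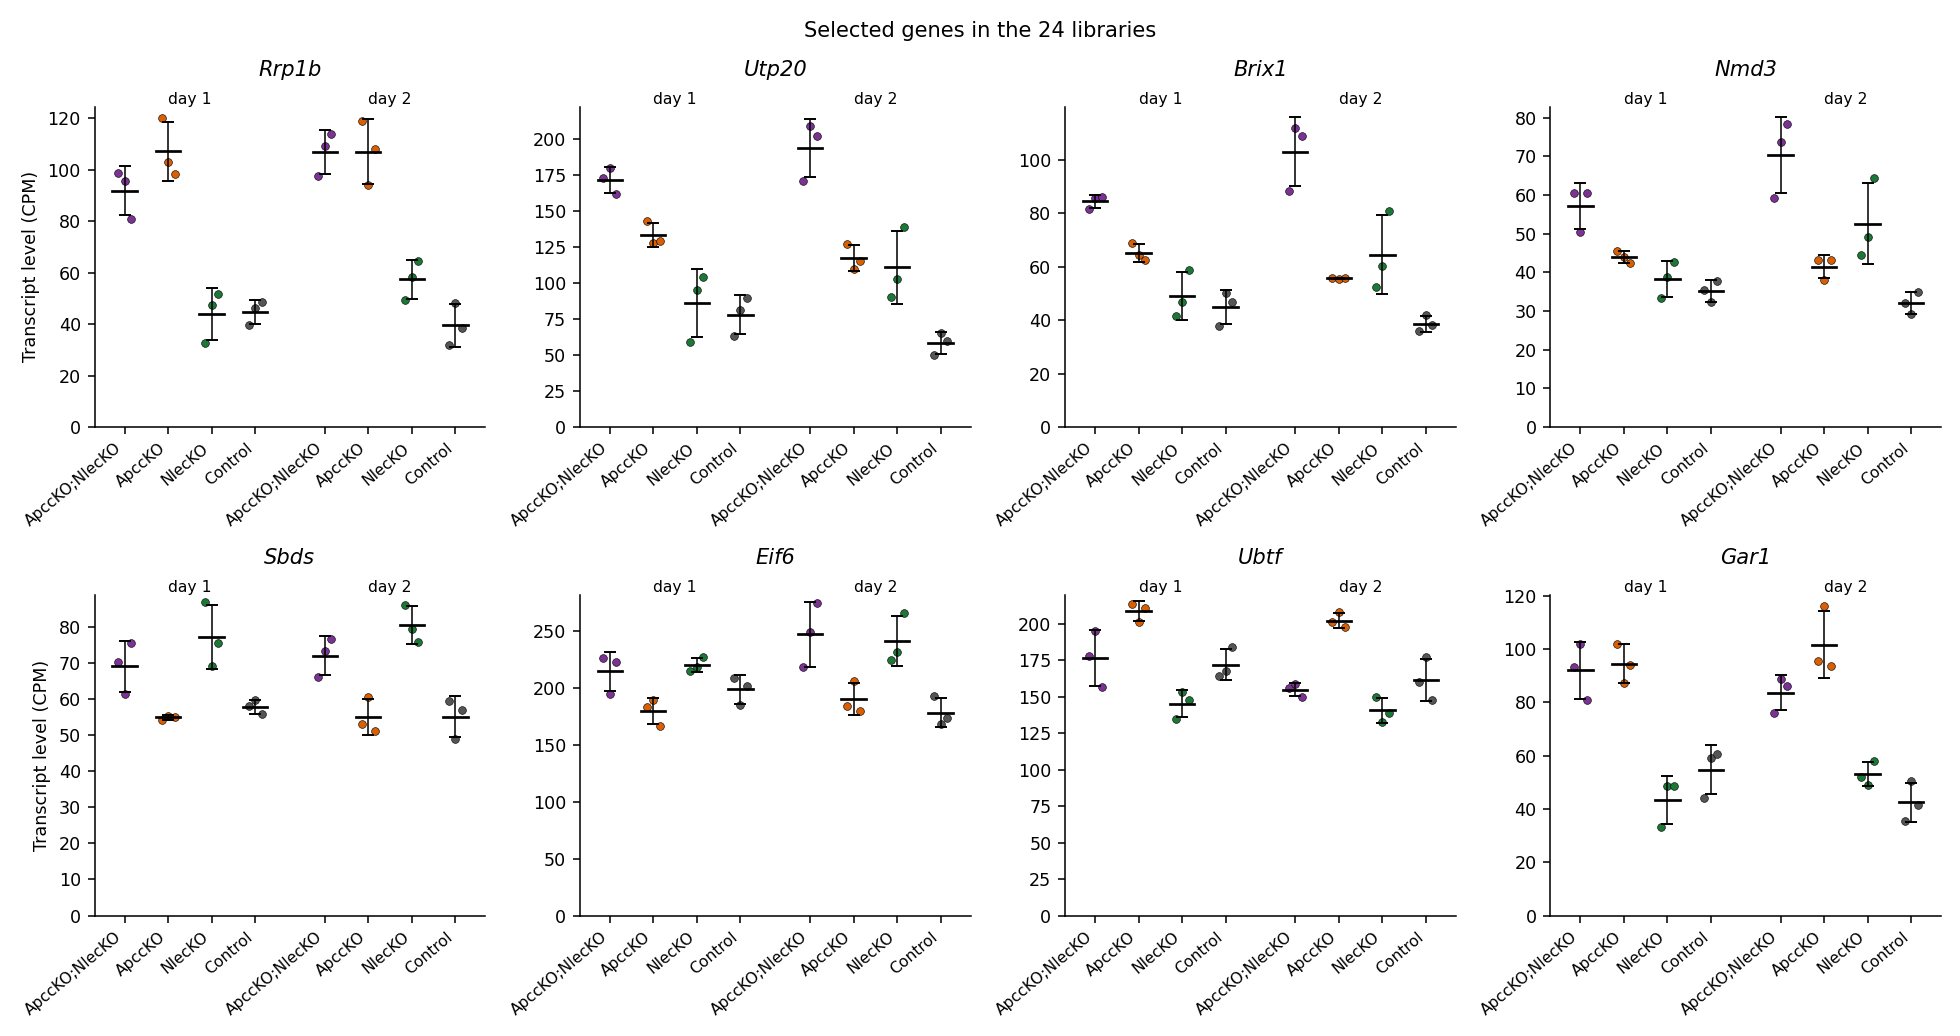
CPM of 8 genes by group and library (points are libraries, bars the mean ± SD, n = 3); the genes were picked after their values were seen. Rrp1b and Gar1 follow Apc loss, Sbds is higher with Nle1 loss on both days and Eif6 on day 2, Utp20, Brix1 and Nmd3 are highest in double knockout crypts of day 2, and Ubtf is lower in double knockout than in ApccKO crypts.

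The comparison of double knockout with ApccKO crypts gives the effect of Nle1 loss without Apc. On day 1, 1 of 53 genes rose, Sbds, and 0 fell by edgeR, where 10.6% of all genes tested were called and 5.87% rose. Ubtf was lower by unadjusted p (11.5% of all genes) and by DESeq2 (7.39%), the 1 member that was. Sbds had 70.1, 61.5 and 75.4 CPM in double knockout and 54.1, 55.4 and 55.1 CPM in ApccKO libraries, without overlap (0.33 ± 0.10, adjusted p = 0.033). Its call was lost without any 1 of the 6 libraries other than double knockout replicate 2, with no filter, with only the compared libraries fitted and without the 3 libraries that stand apart (adjusted p up to 0.51). Nmd3 (0.38 ± 0.13, adjusted p = 0.065), Brix1 (0.37 ± 0.14, adjusted p = 0.092) and Utp20 (0.37 ± 0.18, adjusted p = 0.2) had the largest changes without a call. The median over the 53 genes was 0.04, beside 0.02 over all genes.

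On day 2 of the same comparison 19 genes rose and 1 fell, where 34.9% of all genes tested were called and 19.5% rose. The share of members called in either direction, 20 of 53, was near that of all genes. For rises alone, 19 of 53 members stood beside 19.5% of all genes. A median change of 0.26 stood beside 0.05 over all genes. The 40S factors had 9 of 16 called, all higher, with a median of 0.35, and the 60S factors 7 of 19, all higher, with a median of 0.17. Among factors outside the 53 genes the order was reversed, with medians of 0.15 for 32 other 40S and 0.22 for 27 other 60S factors. The order of the 2 classes thus depended on the genes listed. No snoRNP or chaperone gene passed by edgeR, the largest rises being those of Npm1 (0.39 ± 0.16, adjusted p = 0.068), Npm3 (0.39 ± 0.19, adjusted p = 0.13) and Nop58 (0.36 ± 0.14, adjusted p = 0.059). DESeq2 called 1 of 3 box C/D genes higher. Of the 4 box H/ACA genes 3 had estimates above 0, and the lowest stood at -0.28. The count of 20 became 13 without ApccKO replicate 2, 13 without double knockout replicate 2 and 12 without double knockout replicate 3.

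Brix1 changed most here, with 88.4, 112 and 109 CPM in double knockout and 56, 55.5 and 55.7 CPM in ApccKO libraries (0.89 ± 0.14, adjusted p = 6.3e-05). Nmd3 had 59.3, 73.6 and 78.3 CPM in double knockout and 43.2, 38 and 43.3 CPM in ApccKO libraries (0.76 ± 0.13, adjusted p = 0.00013), and Utp20 had 171, 209 and 202 and 127, 110 and 115 CPM in the same groups (0.73 ± 0.18, adjusted p = 0.0034). The groups did not overlap in any of these 3, and none lost its call in an alternative. Eif6 rose to 218, 249 and 275 CPM in double knockout libraries, against 184, 206 and 180 CPM in ApccKO libraries (0.38 ± 0.09, adjusted p = 0.0033). Sbds had 66.1, 73.2 and 76.6 CPM in double knockout and 53, 60.6 and 51.2 CPM in ApccKO libraries (0.39 ± 0.10, adjusted p = 0.0035). Of the 40S factors, Ltv1 (0.39 ± 0.09, adjusted p = 0.0028) and Ddx10 (0.46 ± 0.11, adjusted p = 0.0032) had the smallest p beside Utp20. Ddx21 rose by 0.46 ± 0.14, adjusted p = 0.017 and lost its call without double knockout replicate 2 or 3 or ApccKO replicate 3 (adjusted p up to 0.076).

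The Pol I genes split on day 2 of Nle1 loss without Apc. Rrn3 rose to 75.9, 79.5 and 87.5 CPM in double knockout libraries, against 59.6, 57.5 and 60.9 CPM in ApccKO libraries (0.45 ± 0.11, adjusted p = 0.0024), and Polr1a rose by 0.44 ± 0.16, adjusted p = 0.034, a call lost without any 1 of the 6 libraries other than double knockout replicate 1, and under other filters (adjusted p up to 0.13). Ubtf (ENSMUSG00000020923) fell, the 1 member that fell in any of the 8 comparisons of genotypes. It had 156, 159 and 150 CPM in double knockout and 201, 208 and 198 CPM in ApccKO libraries, without overlap (-0.39 ± 0.08, adjusted p = 0.0011), and kept its call in every alternative. In the other comparisons of Nle1 loss Ubtf lay lower without a call, by -0.24 ± 0.08, adjusted p = 0.066 on day 1 without Apc and by -0.20 ± 0.08, adjusted p = 0.1 on day 2 with Apc intact.

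**Figure D4:**
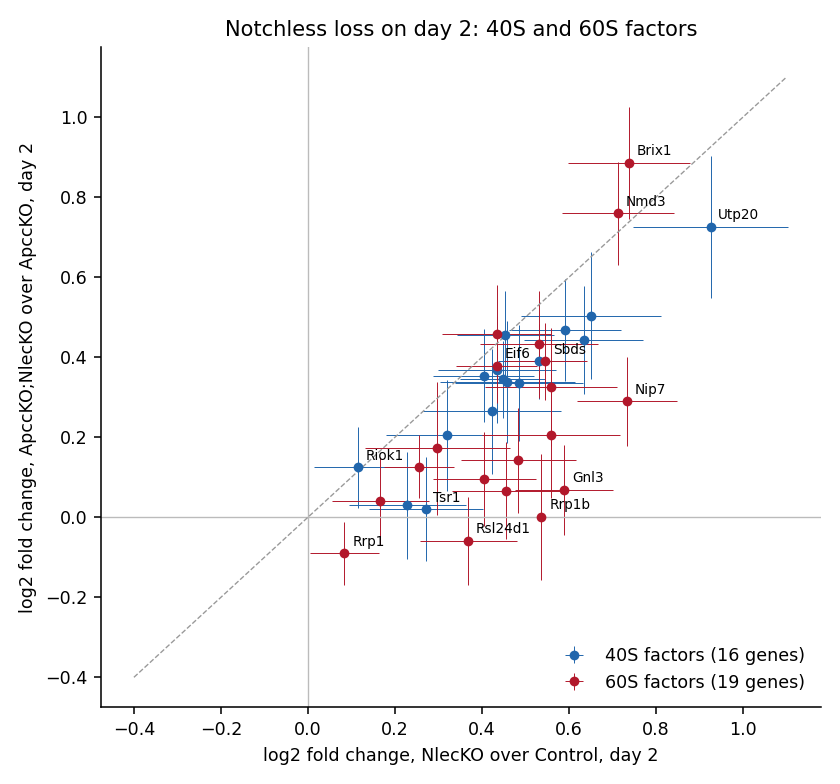
Log2 change after Nle1 loss on day 2 of each 40S factor (16) and 60S factor (19), with Apc intact (horizontal axis) and with Apc lost (vertical axis). Points are genes, bars the SE, and the dashed line marks equal changes. Calls are not marked. The class medians are 0.35 and 0.17 with Apc lost, and 0.45 and 0.48 with Apc intact, and single 60S factors, Brix1 and Nmd3, lie above all 40S factors with Apc lost. Other 40S and 60S factors, not plotted, have medians of 0.15 and 0.22 with Apc lost.

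Whether Nle1 loss acted differently with and without Apc was tested by the interaction. On day 1, 0 of 53 genes were called by edgeR (0 by unadjusted p and 0 by DESeq2), with 0.0121% of all genes called. On day 2, again 0 were called by edgeR, with 5.24% of all genes called. By unadjusted p 6 were lower (8.1% of all genes), and 1 by DESeq2 (3.33%). The 6 were Gar1 (-0.60 ± 0.22, adjusted p = 0.11), Rrp1b (-0.54 ± 0.23, adjusted p = 0.19), Gnl3 (-0.52 ± 0.16, adjusted p = 0.06), Nip7 (-0.44 ± 0.16, adjusted p = 0.12), Rsl24d1 (-0.43 ± 0.16, adjusted p = 0.12) and Nop16 (-0.39 ± 0.17, adjusted p = 0.22), and DESeq2 called Gnl3. For Rsl24d1, 23% of the words of 31 bases are shared with another gene, so part of its counts could be split. Gnl3 had 97.2 ± 8.23 CPM in double knockout and 92.7 ± 11.5 CPM in ApccKO crypts of day 2, and 67.6 ± 7.92 CPM in NlecKO and 44.9 ± 4.37 CPM in Control crypts. Median interactions were -0.13 for 40S and -0.17 for 60S factors, beside 0.04 over all genes.

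Between days, within a genotype, 1 member passed the test in 1 of the 4 genotypes. In double knockout crypts 0 were called by edgeR on day 2 against day 1 (6.49% of all genes). By unadjusted p 4 were higher (10.6% of all genes) and 1 lower (9.81%), and 0 by DESeq2. In ApccKO crypts 1 fell, where 11.3% of all genes were called in either direction. It was Ltv1, with 53.5, 44.9 and 48.3 CPM on day 2 and 61.2, 61.9 and 61.1 CPM on day 1 (-0.33 ± 0.09, adjusted p = 0.027). That call was lost without the 3 libraries that stand apart and without ApccKO replicate 2 or 3 of either day (adjusted p up to 0.39). In NlecKO crypts 0 were called by edgeR (0.0362% of all genes), while 25 were higher by unadjusted p (5.64% of all genes) and 1, Ltv1, by DESeq2 (0.224%), with a median change of 0.29 and 52 of 53 estimates above 0. In Control crypts 0 were called by edgeR and 0 by DESeq2 (0.163% of all genes by edgeR), while 17 were lower by unadjusted p (5.6% of all genes), with a median change of -0.21 and 2 of 53 estimates above 0.

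The differences between days of the genotype effects were tested as well. For Nle1 loss with Apc intact 0 genes were called by edgeR (0.00604% of all genes). By unadjusted p 38 were higher (7.5% of all genes), and 5 by DESeq2 (0.81%), which were Ltv1, Gnl3, Nip7, Nop58 and Ncl. All 53 estimates were above 0, with a median of 0.53. For Apc loss with Nle1 present 0 were called by edgeR (1.13% of all genes), with 1 higher by unadjusted p (5.82%) and 0 by DESeq2. For Nle1 loss without Apc 0 were called by edgeR (0.435% of all genes), with 4 higher by unadjusted p (6.57%) and 0 by DESeq2.

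Other genes of the same pathway, listed by role, were counted in the same way, beside the share of all genes tested that rose. After Apc loss with Nle1 present on day 2, 29 of 32 other 40S factors rose and 1 fell, 23 of 27 tested other 60S factors rose and 0 fell, and 8 of 11 tested other Pol I genes rose and 0 fell, where 29.2% of all genes rose. The 40S factor genes Nol10 (0.92 ± 0.13, adjusted p = 6e-06) and Utp18 (0.77 ± 0.12, adjusted p = 1.6e-05) had the smallest p, as did the 60S factor genes Ppan (1.004 ± 0.15, adjusted p = 1e-05) and Tma16 (0.95 ± 0.145, adjusted p = 1.5e-05). Of the Pol I list these were Taf1d, of the Pol I promoter selectivity complex (0.67 ± 0.08, adjusted p = 1.2e-06), and the shared subunit gene Polr2f (0.78 ± 0.13, adjusted p = 3.2e-05). The gene that fell was Rrp36 (-0.31 ± 0.08, adjusted p = 0.0014). After Nle1 loss with Apc intact on day 2, 11 of 32 other 40S, 11 of 27 other 60S and 3 of 11 other Pol I genes rose and 0 fell, where 7.33% of all genes rose. Their median changes of 0.20 for 40S and 0.31 for 60S factors stood below the 0.45 and 0.48 of the members, of which 10 of 16 and 16 of 19 rose. Utp11 (0.40 ± 0.07, adjusted p = 0.00081) and Utp4 (0.61 ± 0.15, adjusted p = 0.01) led the 40S factors, Mak16 (0.88 ± 0.17, adjusted p = 0.0015) and Nifk (0.56 ± 0.12, adjusted p = 0.0035) the 60S factors, and Polr1e (0.66 ± 0.19, adjusted p = 0.023) and Polr1d (0.31 ± 0.09, adjusted p = 0.028) the Pol I genes. On day 2 of Nle1 loss without Apc, 8 of 32, 8 of 27 and 2 of 11 rose, where 19.5% of all genes rose, and Taf1d alone fell (-0.26 ± 0.08, adjusted p = 0.019). The medians there were 0.15 for other 40S, 0.22 for other 60S and 0.01 for other Pol I genes, beside 0.05 over all genes.

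Markers of cell types and of cycling moved with the genotypes. In bulk RNA, fewer cells of a type and less RNA per cell cannot be told apart. After Apc loss with Nle1 present on day 2, 9 of 11 markers of cycling cells and 7 of 8 stem cell markers rose, while all 14 enterocyte and 6 of 8 immune markers fell. Of all genes tested, 58.7% were called there in either direction, and 29.2% rose. Of 8 goblet markers 5 fell, as did all 5 tested tuft markers, and of 9 enteroendocrine markers 7 fell and 1 rose. Of 7 Paneth markers 1 rose, and of 7 tested stromal and endothelial markers 1 rose and 2 fell. Summed cycling markers lay between 2210 and 2450 CPM in ApccKO and between 1270 and 1720 CPM in Control libraries, and enterocyte markers between 2380 and 4420 CPM and between 10100 and 35800 CPM in the same groups. After Nle1 loss the cycling markers went the other way from the assembly genes on day 2, when all 11 fell without Apc and 7 of 11 fell with Apc intact. Of all genes tested, 34.9% without Apc and 15.6% with Apc intact were called on day 2 in either direction, and 19.5% and 7.33% rose. On day 1, when the assembly genes had medians of 0.04 and -0.07, 10 of 11 cycling markers fell without Apc and 6 of 11 with Apc intact. The shares of all genes called on day 1 in either direction were 10.6% and 2.48%, and 5.87% and 0.87% rose. Summed cycling markers lay between 1080 and 1290 CPM in double knockout and between 2210 and 2450 CPM in ApccKO libraries of day 2, and between 882 and 1170 CPM in NlecKO and 1270 and 1720 CPM in Control libraries. In double knockout against ApccKO crypts of day 2, where 34.9% of all genes were called, 3 of 14 enterocyte, 5 of 8 immune and 4 of 7 stromal and endothelial markers rose and 0 fell by edgeR, and 7 of 8 stem cell markers fell. Of 8 goblet markers 6 rose and 1 fell, and of 9 enteroendocrine markers 6 rose and 2 fell. In NlecKO against Control crypts of day 2, where 15.6% of all genes were called, 5 of 9 enteroendocrine markers rose, 2 of 8 stem cell markers fell, and 0 of 14 enterocyte markers were called by edgeR. Myc, named after its values were seen, averaged 311 ± 37.7 CPM in double knockout, 279 ± 13.7 CPM in ApccKO, 139 ± 42.6 CPM in NlecKO and 103 ± 19 CPM in Control crypts of day 2. The part of cell composition in the changes of the 53 genes was not tested.

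**Figure D5:**
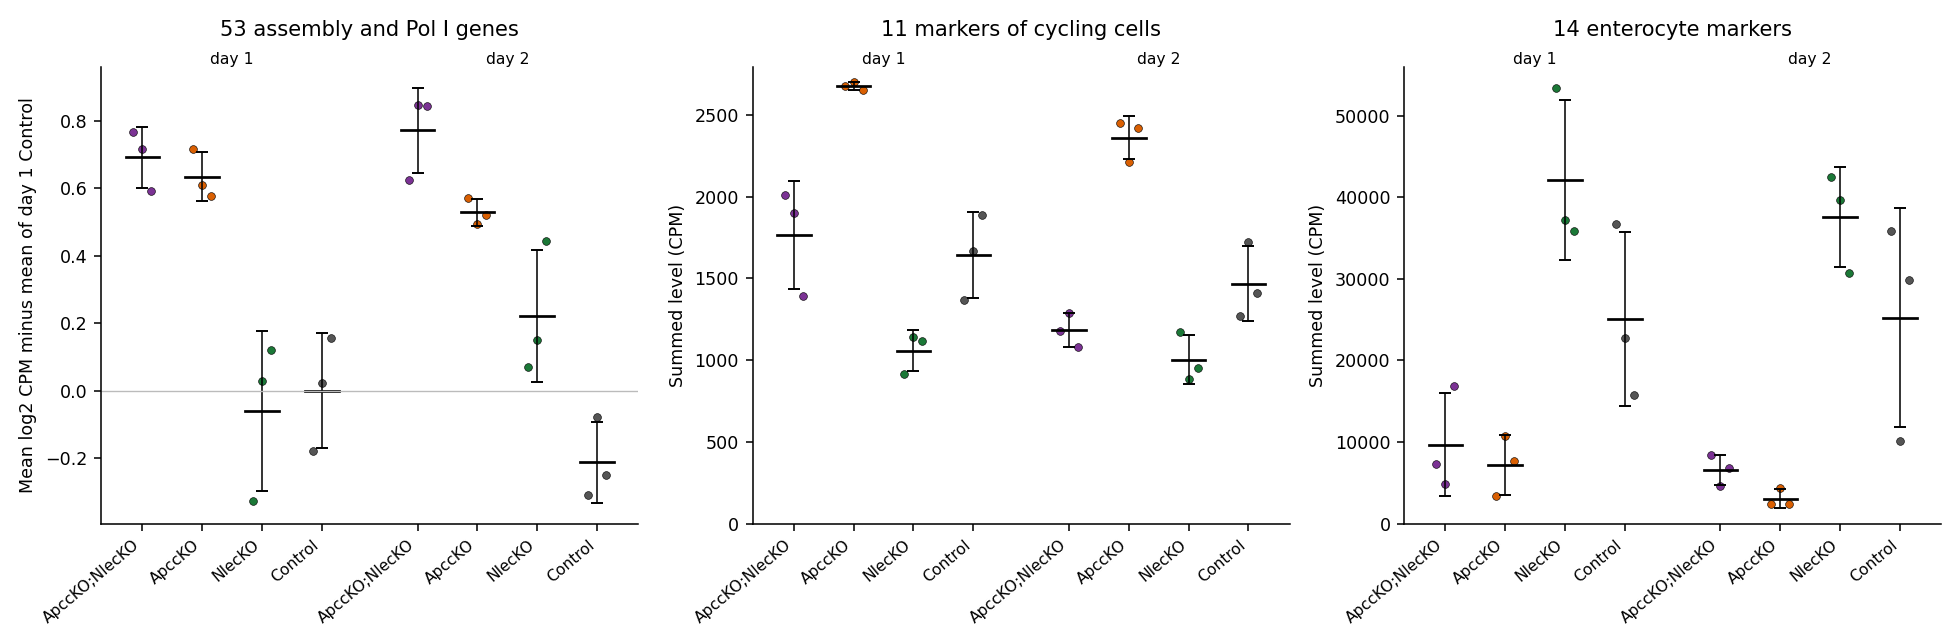
Mean log2 CPM of the 53 genes relative to the mean of day 1 Control (left), summed CPM of 11 cycling markers (middle) and of 14 enterocyte markers (right), by group and library; points are libraries and bars the mean ± SD (n = 3). On day 2 double knockout libraries lie above ApccKO libraries for the 53 genes and below them for cycling markers, and NlecKO replicate 3 is the highest NlecKO library for the 53 genes.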

How the data were processed

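Polyadenylated RNA of jejunal crypts was analysed in 24 libraries, and groups came from the labels. The authors deposited estimated counts (expected counts, not whole) and TPM per gene, made with kallisto 0.43 and build mm9 per the submitters' processing notes. A table of normalised counts, for which those notes name DESeq2 and DESeq, was not used. The summing of transcripts to genes, the strand setting and the annotation release: not given in the sources used here. Expected counts were rounded, filtered with edgeR 4.0.16 (minimum count of 10 over the 8 groups; 16552 of 37620 genes kept), scaled by TMM and fitted as 1 mean per group over all 24 libraries with the robust quasi-likelihood method of edgeR (limma 3.58.1, R 4.3.3). P values were adjusted by Benjamini-Hochberg over all genes tested, with a threshold of 0.05. Group CPM are scaled by TMM. The deposited TPM served to rank genes by level. The biological coefficient of variation was 17.6%, and 17.86 to 26.47 M counts per library limit the precision. The fits were run on simulated counts with known changes for Nle1 loss with Apc intact and the interaction, both of day 2. The simulation did not cover the comparisons of Apc loss, and no result here rests on it.

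The 53 genes, their role classes and the other lists were chosen with earlier results of these data known. Each comparison names, per class, up to 3 called genes of smallest p, called genes moving against their class, and up to 3 uncalled genes of largest change. Interactions and days name up to 5 called genes per direction, and levels name the 3 highest and 3 lowest. Alternatives were DESeq2 1.42.0, its size factors in edgeR, no filter, a stricter filter (2 CPM in at least 3 libraries), a replicate block, only the libraries compared, leaving out each library, and leaving out 3 libraries that stand apart. Words of 31 bases were compared on GENCODE M21 transcripts, where Riok2 had none to compare. Symbols of 7 listed genes or markers that did not pass the filter or were not matched (Noc2l, Polr1f, Polr1g, Polr1h, Taf1a, Pdgfra and Il25) were left out.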

Additional observations from a re-analysis of the deposited data

How the results depend on the processing

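Over 31 settings, 24 of them leaving out 1 library, no change of a called member turned its sign, and 201 of 263 calls of members in a comparison held in every setting run for that comparison. Apc loss gave 43 to 51 calls in all its settings. These other counts moved. For Nle1 loss with Apc intact, day 1 gave 0 with only the libraries compared and 0 to 1 with a library left out, and day 2 gave 2 and 13 to 38. Without Apc, day 1 gave 2 by DESeq2, 2 with its size factors, 0 with no filter, 2 with the stricter filter, 0 without the 3 libraries that stand apart and 0 to 5 with a library left out, and day 2 gave 12 to 22 with a library left out. The interaction of day 2 gave 1 by DESeq2, 3 with the stricter filter, 3 with only the libraries compared and 0 to 2 with a library left out. Day 2 against day 1 gave, for NlecKO, 1 by DESeq2 and 0 to 3 with a library left out, and, for ApccKO, 5 with only the libraries compared, 0 without the 3 libraries and 0 to 1 with a library left out. The day difference of Nle1 loss with Apc intact gave 5 by DESeq2 and 0 to 7 with a library left out. Medians of 60S factors ran, with a library left out, between 0.552 and 0.774 (Apc loss, Nle1 present, day 1), 0.652 and 0.916 (Nle1 lost, day 1) and 0.451 and 0.684 (Nle1 lost, day 2). The cause was not tested.

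Whether the replicate numbers pair the libraries was not settled. Deviations of 84 same-numbered pairs correlated at -0.334 to 0.412 (median 0.017), with 23 over 0.1. Those of 168 pairs with different numbers correlated at -0.374 to 0.376 (median -0.011), with 32 over 0.1. With the replicate block, Nle1 loss without Apc had 2 calls on day 1 and 21 on day 2, and Apc loss had 51, 51, 51 and 50.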
